A study of Mus musculus with 8 samples.

Results

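The cytosolic ribosomal protein genes encode the proteins of the ribosome outside mitochondria. They were taken as the rows of the count table whose gene carries a protein-coding symbol of the form Rpl or Rps with a number, together with Rplp0, Rplp1, Rplp2, Rpsa and Fau, leaving out pseudogenes, the Rps6k kinases and paralogues whose symbol ends in l. This gave 78 of the 10825 genes in the table, 46 of the large subunit and 32 of the small subunit. A pair of further rows, Rps3a2 and Rps3a3, matched the pattern but are annotated as processed pseudogenes and were left out. All 78 genes passed the filter on low counts, with at least 3 counts in every library.

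The libraries come from cells labelled as dendritic cells (DCs), sorted from tumours in wild-type mice. The tumours were formed by the E0771 cell line, a mouse mammary carcinoma line. Mice received either PBS, the vehicle control, or DRQ, a CD74 inhibitor according to the labels; CD74 is the invariant chain of MHC class II and a receptor for MIF. Treatment began on day 10 and tumours were collected at 3 weeks in both groups, so the groups share the genotype, the tumour and the schedule and differ in the agent given. Each group has 4 libraries, made by a bulk form of MARS-seq that counts tags at the 3′ end of polyadenylated RNA. The labels do not say whether the libraries are separate mice or pools, so the spread between them may be partly technical.

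Ribosomal proteins assemble with ribosomal RNA into a large subunit, which joins amino acids, and a small subunit, which reads the mRNA. Their transcripts are among the most abundant in growing cells, and most begin with a C followed by a run of pyrimidines at the 5′ end, the terminal oligopyrimidine (TOP) tract, through which the mTOR pathway and LARP1 control their translation and stability. In DCs, translation is known to be regulated during maturation.

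The annotated start sites were examined for pyrimidine runs, which were not used to choose the genes. At these starts runs were found in a minority of the genes, though more often than among all genes. The annotated starts were not checked against the starts used in these cells, so a gene without a run here may still have a TOP tract. RefSeq promoter records of the GRCm38.p6 build matched 58 of the 78 genes. A C at an annotated start followed by 4 bases of C or T was found in 14 of the 58 (24.1%), against 3.01% of all 27025 genes with a record. A run of at least 8 C or T on the gene's strand, within 30 bases from 10 before the start to 20 after it, was found in 24 of the 58 (41.4%), against 13% of all genes; on the opposite strand the shares were 5.17% and 15.4%. The letters CCGGAAG, on either strand of the 300-base record, were found in 41.4% of the 58 and in 9.93% of all genes, and TATAAA in 10.3% and 15.7%. The windows of 9 genes whose values are described later are given 5′ to 3′, with the longest run of C or T in capitals; the first 5 hold a run of 8 or more that spans the start, and the last 4 have shorter runs.
Fau (chr19:6057937-6057966, plus strand): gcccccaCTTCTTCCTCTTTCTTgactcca
Rps15a (chr7:118116128-118116157, minus strand): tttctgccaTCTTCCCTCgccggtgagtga
Rps6 (chr4:86857348-86857377, minus strand): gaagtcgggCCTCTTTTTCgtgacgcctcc
Rpl7a (chr2:26910797-26910826, plus strand): CTCTTCTTTCTTTCTCCagcagccgagcaa
Rps24 (chr14:24490668-24490697, plus strand): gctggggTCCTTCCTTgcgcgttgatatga
Rps7 (chr12:28635934-28635963, minus strand): cggTTTCCacccacctacttccgctgtccc
Rps2 (chr17:24720053-24720082, plus strand): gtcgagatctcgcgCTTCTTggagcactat
Rpl6 (chr5:121204491-121204520, plus strand): aCCTCCCgtcattgcttatagaccggaagc
Rpl13 (chr8:123102340-123102369, plus strand): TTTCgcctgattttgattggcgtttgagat
The median log2 fold change, DRQ over PBS, was −0.08 over the 24 genes with a run of 8 or more at an annotated start. It was −0.14 over the 34 without one there, which are not thereby genes without a TOP tract. Among the genes with low estimates, Rpl10a, Rps7, Rpl6, Rps2 and Rpl13 held no run of 8 in these windows, and Rpl18 and Rpl7a held one.

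The libraries held 361792 to 543892 counts and 9934 to 10520 detected genes, and 6156 genes passed the filter. The DC label was checked against markers, which showed DC genes together with NK and T cell genes. All 8 genes of the conventional DC list (Flt3, Zbtb46, Itgax, Cd74, Cst3 and 3 MHC class II genes) were in the table, and their summed level was 7894 to 13086 CPM in PBS (counts scaled to a library total of 1000000) and 14807 to 17125 CPM in DRQ. All 11 NK cell genes were also present, summing to 11708 to 15303 CPM in PBS and 9930 to 14752 CPM in DRQ. The lowest NK sum was in DRQ replicate 1. In PBS the NK sums reached higher than the conventional DC sums, though the lists differ in genes and do not give cell numbers. Of the 13 T cell genes, 12 were present (3339 to 4220 CPM in PBS, 3668 to 4237 CPM in DRQ). The B cell genes were nearly absent, with 1 of 6 in the table and at most 17 CPM. The 9 monocyte and macrophage genes in the table summed to 362 to 804 CPM in PBS and 391 to 1335 CPM in DRQ, and the 4 neutrophil genes to 162 to 1540 CPM and 65 to 375 CPM. A pair of libraries lay at the ends of the range in the ribosomal protein genes. DRQ replicate 1 was the lowest of the 8 libraries for 45 of the 78 genes, and PBS replicate 3 was the highest for 38. Results are given with all libraries and without these. The pair was picked from these same values, as the lowest DRQ and the highest PBS library. Leaving out either therefore raises DRQ relative to PBS in these genes by construction, and the results without them are descriptions.

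Ribosomal protein transcripts were a large part of each library. Their share of all counts was 19.7%, 19.0%, 21.5% and 20.8% in the PBS libraries, in replicate order, and 17.2%, 19.9%, 18.9% and 19.0% in the DRQ libraries. The groups overlapped, since DRQ replicate 2 lay above PBS replicates 1 and 2, and DRQ replicate 1 was the lowest of all. The mean share was 20.3% ± 1.11 in PBS and 18.7% ± 1.13 in DRQ (SD, n = 4), a difference of −1.54 percentage points. The difference was −1.02 points without DRQ replicate 1 and −0.60 points without PBS replicate 3 as well. It ran from −1.95 to −1.02 points when 1 library at a time was left out. In bulk samples, fewer cells of a type with much ribosomal protein mRNA and less such mRNA per cell cannot be told apart. The summed level of the conventional DC list did not overlap between the groups, nor did that of 8 mature migratory DC genes (337 to 625 CPM in PBS, 786 to 1242 CPM in DRQ). The part of such shifts in the ribosomal protein share was not tested.

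Averaged over the genes on the log2 CPM scale, where each gene counts equally, the level was 10.89, 10.72, 11.07 and 10.99 in PBS and 10.60, 10.89, 10.89 and 10.90 in DRQ. DRQ replicates 2 to 4 lay close together, with an SD of 0.004, inside the PBS range, and DRQ replicate 1 lay below every other library. The group means were 10.92 ± 0.15 in PBS and 10.82 ± 0.15 in DRQ (SD, n = 4), and the DRQ mean was 10.89 without replicate 1. Without PBS replicate 3 the PBS mean was 10.87, so that with both left out the DRQ mean lay above the PBS mean, by 0.03. Taking out the lowest DRQ and the highest PBS value of this same measure moves the difference upward by construction. When 1 library at a time was left out, the difference of DRQ from PBS ran from −0.17 to −0.02. Mitochondrially encoded transcripts, a rough sign of RNA and cell quality, took 0.160%, 0.144%, 0.448% and 0.289% of the counts in PBS and 0.224%, 0.358%, 0.437% and 0.303% in DRQ. Of 13 mitochondrially encoded genes looked for, 6 were in the deposited counts, so these shares leave out part of such transcripts. PBS replicate 3, the library highest in ribosomal protein transcripts, had the highest mitochondrial share, and PBS replicate 2, the lowest of the PBS libraries, had the lowest; the part of this in the level was not tested.

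**Figure D1:**
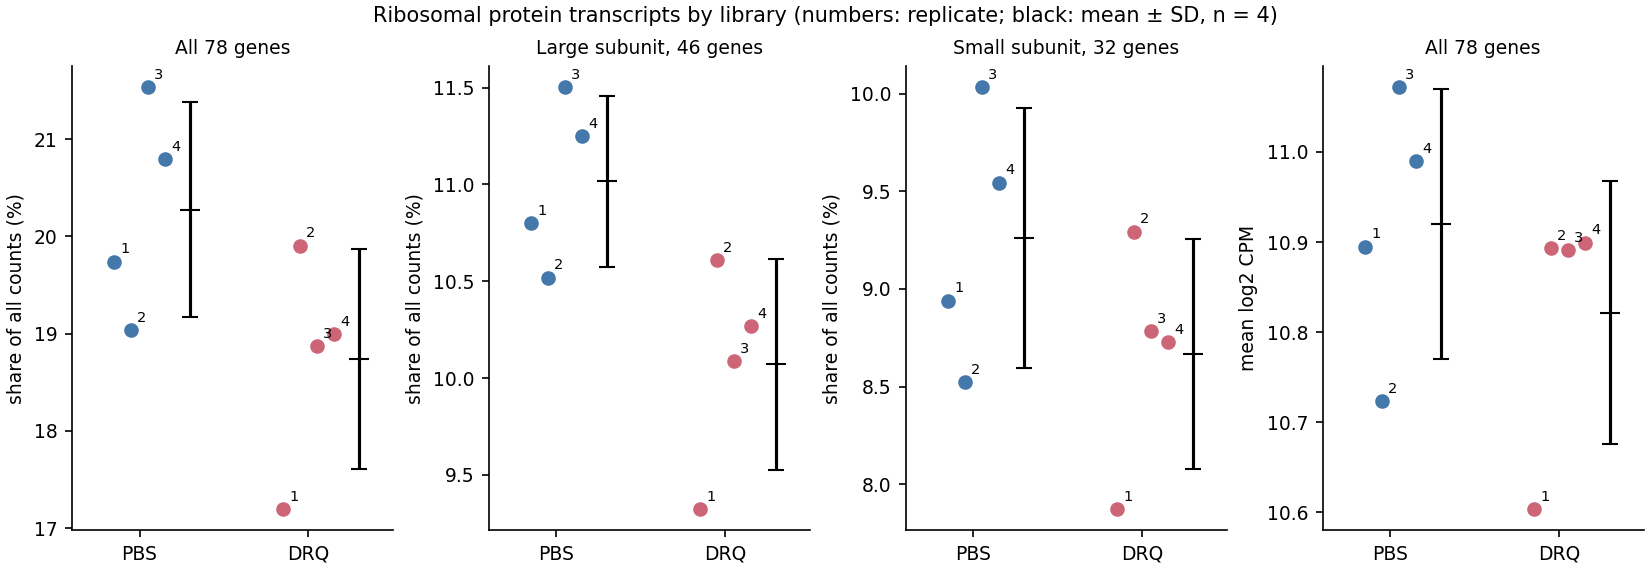
Share of all counts (%) in the 78 ribosomal protein genes and in each subunit, and mean log2 CPM over the 78 genes, by library (numbered points) with the group mean and SD (black, n = 4). PBS and DRQ overlap in the total share, and DRQ replicate 1 (17.2%, mean log2 CPM 10.60) lies lowest.

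DRQ replicate 1 had the lowest and PBS replicate 3 the highest share in both subunits. The large subunit took 11.02% ± 0.441 of the counts in PBS and 10.1% ± 0.544 in DRQ, and the small subunit 9.26% ± 0.665 and 8.67% ± 0.589 (SD, n = 4). The ratio of large to small subunit counts was 1.21, 1.23, 1.15 and 1.18 in PBS and 1.18, 1.14, 1.15 and 1.18 in DRQ. The ratio was highest in PBS replicates 1 and 2, and the other libraries lay between 1.14 and 1.18 in both groups. On the log2 CPM scale the large minus the small subunit mean was −0.39 ± 0.08 in PBS and −0.44 ± 0.08 in DRQ (SD, n = 4), a difference within the spread of either group. Without DRQ replicate 1 the DRQ value was −0.48 ± 0.05 (SD, n = 3), and without PBS replicate 3 the PBS value was −0.36 ± 0.06 (SD, n = 3). With both left out, the difference of −0.11 was larger than either SD. These were the highest DRQ and the lowest PBS library on this measure, so leaving them out widens the difference by construction.

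No single ribosomal protein gene differed between DRQ and PBS at an adjusted p under 0.05 in edgeR, with p-values from its quasi-likelihood F test adjusted by Benjamini-Hochberg over all 6156 genes. The background of that call was 0.0325% of all genes. The smallest adjusted p among the 78 was 0.439. At an unadjusted p under 0.05, 8 genes were lower in DRQ (background 3.28%) and 1 was higher (background 3.98%). DESeq2 (background 0.44%) and limma-voom (background 0.065%) also called none of the 78, with 8 lower and 1 higher by DESeq2 (backgrounds 2.7% and 3.27%) and 11 lower and 2 higher by limma-voom (backgrounds 3.51% and 4.17%).

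The estimates lay mostly below 0, in 42 of the 46 large subunit genes and 27 of the 32 small subunit genes, against 51.6% of all genes tested. The median log2 fold change was −0.15 for the large subunit and −0.11 for the small subunit, beside −0.01 over all genes. The 4 DRQ libraries lay wholly below the 4 PBS libraries for 8 of the 78 genes, 7 of them of the large subunit (background 2.18%), and wholly above for none (background 2.14%). Without DRQ replicate 1, 58 of the 78 estimates were below 0 (background 50%), the median was −0.06, and 2 genes were lower and 2 higher at an unadjusted p under 0.05 (backgrounds 2.76% and 3.46%). Without PBS replicate 3, 60 were below 0 (background 50.5%), with 4 lower and 3 higher (backgrounds 3.55% and 4.55%) and none at an adjusted p under 0.05 (background 0.0892%). Without both, 45 were below 0 (background 50.7%), the median was −0.03, and 2 were lower (Rpl10a and Rpl3, background 3.17%) and 4 higher (Rps24, Rpl39, Rps15a and Rpl36a, background 4.03%) at an unadjusted p under 0.05, with none at an adjusted p under 0.05 (background 0.126%). That pair was picked from the values compared, as the lowest DRQ and the highest PBS library. With 1 library at a time left out, 58 to 73 of the 78 were below 0, beside 51.6% of all genes with all 8 libraries. The estimate stayed below 0 in 42 genes when each of the 8 libraries, or that pair, was left out, stayed above 0 in 5 (Rps15a, Rps4x, Rpl39, Rps24 and Rps6), and changed sign in 31. The same counts were not made over all genes, so these describe the family only.

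**Figure D2:**
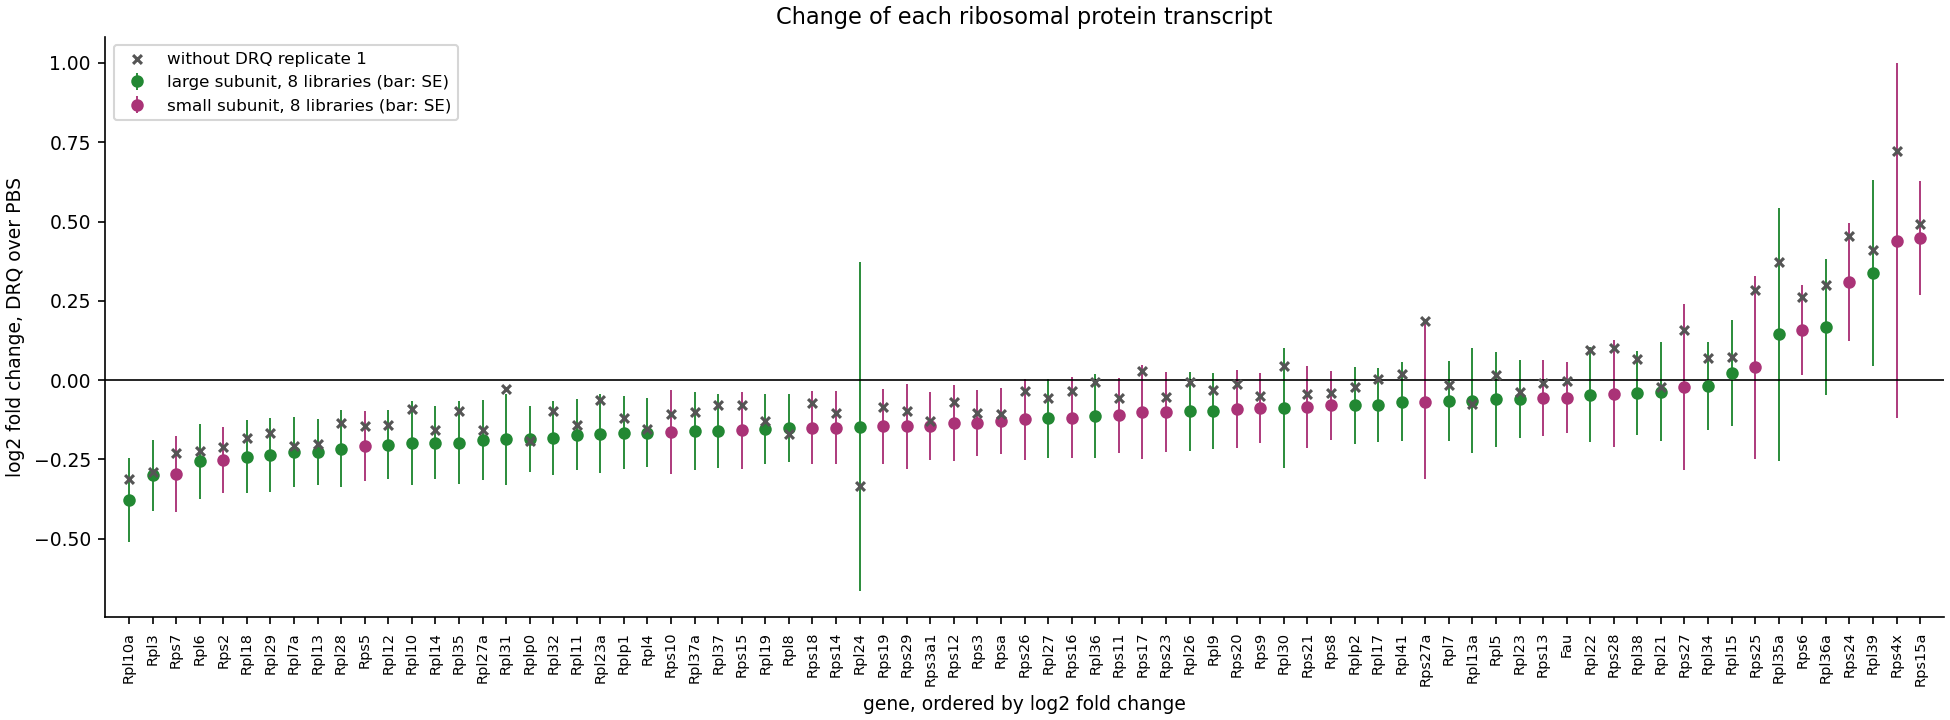
Log2 fold change, DRQ over PBS, of 77 of the 78 ribosomal protein genes (points, edgeR estimate from 8 libraries; bars, SE; green, large subunit; purple, small subunit), with the estimate without DRQ replicate 1 as crosses. Most points lie between 0 and −0.38, and the crosses lie nearer to 0 or above it for most genes.

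The direction split by level. The deposited values are tags at the 3′ end and were not divided by length, so CPM is used here as a level per transcript. All 62 ribosomal protein genes with a mean of at least 1000 CPM had an estimate below 0 (median log2 fold change −0.15), and of the 16 under 1000 CPM 7 were below 0 (median 0.03). Among the 91 other genes at 1000 CPM or more, 52.7% were below 0 (median −0.01), and among 1709 others at 100 to under 1000 CPM, 50.3%. Without DRQ replicate 1, 55 of the 62 and 3 of the 16 were below 0, beside 46 of the 91 and 821 of the 1709 other genes. Without DRQ replicate 1 and PBS replicate 3 the counts were 42 and 3, beside 41 and 830. The limit of 1000 CPM was chosen after the values were seen, and the split is a description. Over the 78 genes, Spearman's correlation of the log2 fold change with the mean CPM was −0.39; the points share the same 8 libraries.

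Rpl10a, which forms the mobile L1 stalk beside the exit site for tRNA, had the lowest log2 fold change. Its level was 1723, 1452, 1355 and 1929 CPM in PBS and 1091, 1186, 1287 and 1405 CPM in DRQ. The groups overlapped only in that DRQ replicate 4 lay above PBS replicate 3. The log2 fold change was −0.38 ± 0.13 (SE; adjusted p = 0.439, edgeR), and −0.31 without DRQ replicate 1.

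Rpl3, which lies next to the peptidyl transferase centre, had levels of 2638, 2639, 2334 and 2512 CPM in PBS and 2044, 2034, 1931 and 2211 CPM in DRQ. All 4 DRQ libraries lay below all 4 PBS libraries, and DRQ replicate 3, not replicate 1, was the lowest. The log2 fold change was −0.30 ± 0.11 (SE; adjusted p = 0.494, edgeR) and −0.29 without DRQ replicate 1.

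Rps2, at the mRNA entry side of the small subunit, was the only small subunit gene whose groups did not overlap. It had 4310, 4234, 4491 and 4115 CPM in PBS and 3337, 3568, 3799 and 3691 CPM in DRQ. Its log2 fold change was −0.25 ± 0.10 (SE; adjusted p = 0.585, edgeR). Rps7, a small subunit protein that is also known to bind MDM2, the regulator of p53, had 2394, 2069, 2640 and 2633 CPM in PBS and 1748, 1944, 2253 and 1989 CPM in DRQ. Here PBS replicate 2 fell inside the DRQ range. Its log2 fold change was −0.30 ± 0.12 (SE; adjusted p = 0.577, edgeR) and −0.23 without DRQ replicate 1.

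Rpl13 and Rpl6, both on the outer shell of the large subunit, had groups that did not overlap. Rpl13 had 4365, 4667, 4313 and 4379 CPM in PBS and 3657, 3917, 3886 and 3691 CPM in DRQ, with a log2 fold change of −0.23 ± 0.10 (SE; adjusted p = 0.653, edgeR). Rpl6 had 1652, 1494, 1490 and 1701 CPM in PBS and 1260, 1410, 1282 and 1355 CPM in DRQ, with a log2 fold change of −0.26 ± 0.12 (SE; adjusted p = 0.662, edgeR). The other large subunit genes whose groups did not overlap were Rpl7a, Rpl29, Rpl12 and Rplp0. As mean ± SD of the 4 libraries of PBS and then of DRQ, Rpl7a was at 2731 ± 162 and 2334 ± 80.8 CPM, Rpl29 at 2173 ± 140 and 1844 ± 191 CPM, and Rpl12, at the base of the stalk, at 3489 ± 237 and 3030 ± 226 CPM. The log2 fold changes of these 3 genes lay between −0.20 and −0.24.

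The stalk recruits the translation factors that hydrolyse GTP. Rplp0, which anchors it, had 4499, 4543, 4115 and 4407 CPM in PBS and 3971, 3653, 3891 and 3923 CPM in DRQ. These groups did not overlap, and the log2 fold change was −0.19 ± 0.10 (SE; adjusted p = 0.731, edgeR) with all libraries and −0.19 without DRQ replicate 1. Rplp1 and Rplp2, the acidic proteins that bind to Rplp0 as dimers, overlapped between the groups: Rplp1 had 6610 ± 707 CPM in PBS and 5890 ± 845 CPM in DRQ, and Rplp2 had 4422 ± 711 and 4184 ± 484 CPM (SD, n = 4). The highest DRQ value of both was in replicate 2.

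A few genes of lower level had estimates above 0. Rps15a, a small subunit protein bound to the central domain of the 18S rRNA, had 227, 205, 400 and 302 CPM in PBS and 355, 395, 426 and 365 CPM in DRQ. PBS replicate 3 was inside the DRQ range and the other PBS libraries were below it. The log2 fold change was 0.45 ± 0.18 (SE; adjusted p = 0.577, edgeR). It was 0.69 without DRQ replicate 1 and PBS replicate 3, and 0.32 without PBS replicate 2. Rps24, mutated in some human patients with Diamond-Blackfan anaemia, had 755, 637, 1214 and 873 CPM in PBS and 755, 1161, 1350 and 1040 CPM in DRQ, with overlapping groups. Its log2 fold change was 0.31 ± 0.19 (SE; adjusted p = 0.773, edgeR) with all libraries, 0.65 without that pair and 0.18 without PBS replicate 2. Rpl39, a small protein that lines the exit tunnel of the nascent chain, had 103, 89.8, 294 and 111 CPM in PBS and 161, 181, 211 and 193 CPM in DRQ. PBS replicate 3 was far above the rest, and the other PBS libraries lay below every DRQ library. The log2 fold change of Rpl39 was 0.34 ± 0.29 (SE; adjusted p = 0.861, edgeR) with all libraries. It was 0.16 without PBS replicate 2 and 0.88 without PBS replicate 3, where its adjusted p in edgeR was 0.107, the smallest of the 78 in that fit.

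**Figure D3:**
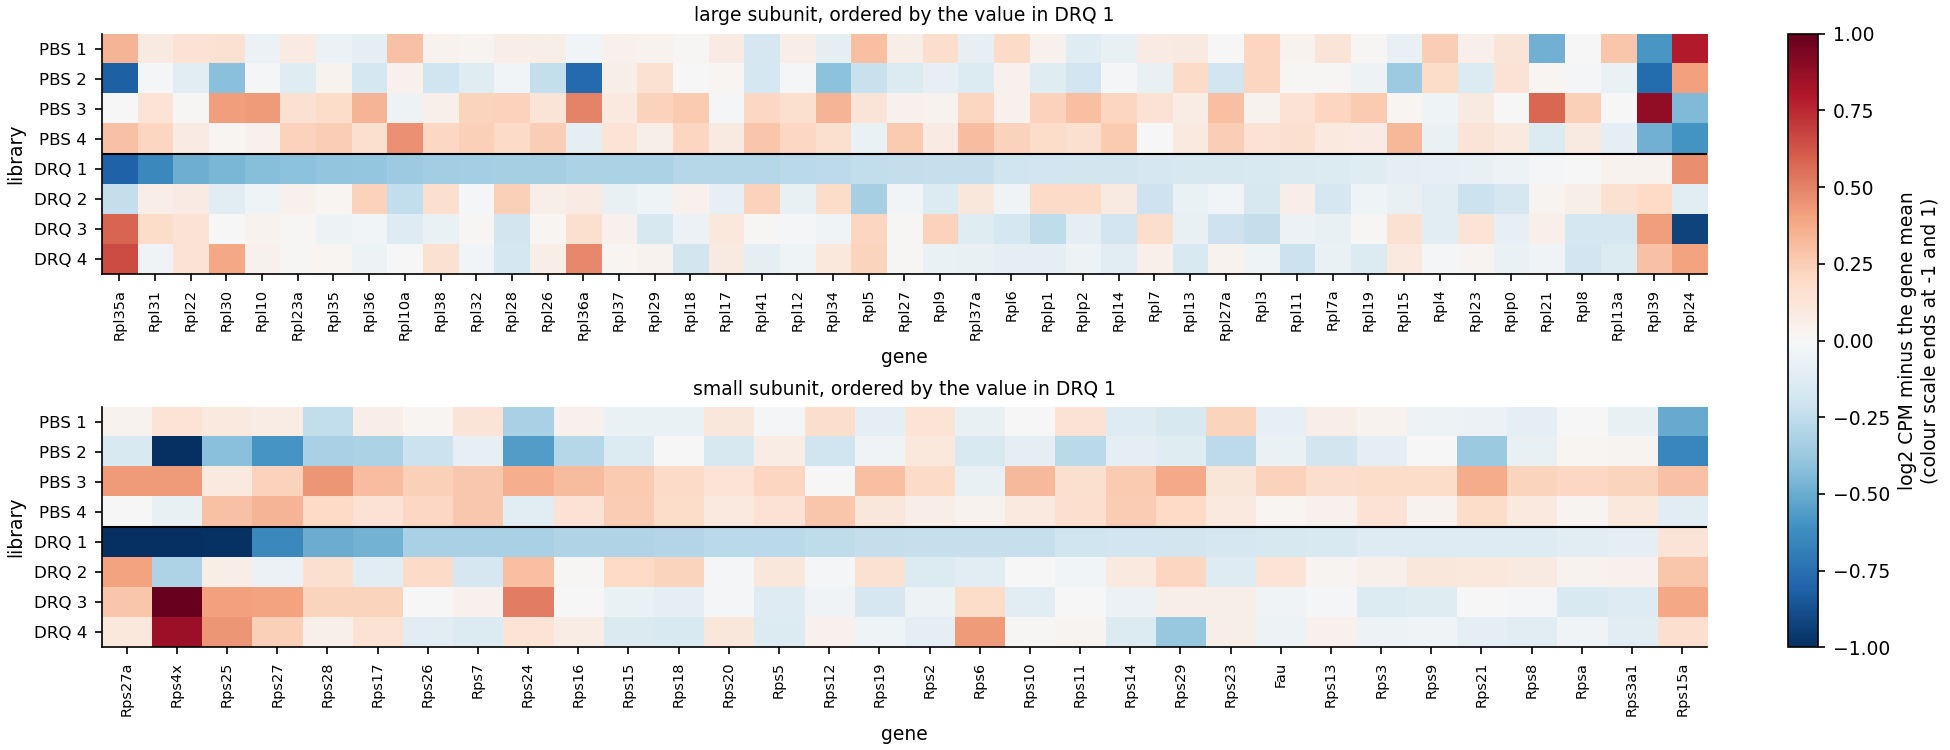
Log2 CPM of 77 ribosomal protein genes in each library minus the gene's mean over the 8 libraries (red, above; blue, below; the scale ends at −1 and 1), with large subunit genes above and small subunit genes below, ordered by the value in DRQ replicate 1. The row of DRQ replicate 1 is blue for nearly all genes, and the row of PBS replicate 3 is mostly red.

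Levels within the family spanned a wide range. Rps3, an RNA-binding protein at the mRNA entry that also has reported roles in DNA repair, was highest, at 6949 ± 603 CPM in the PBS and 6330 ± 392 CPM in the DRQ libraries (SD, n = 4). Rpl41, the smallest ribosomal protein, and Rplp1 were also among the highest, with means over all libraries of 6329 and 6250 CPM, and these levels did not differ beyond their spread. The 10 highest genes held 28.4% of the family's counts and the 10 lowest 1.46%. The lowest was Rpl24, which contributes to a bridge between the subunits, at 20.5 ± 11.4 CPM in PBS and 18.8 ± 8.93 CPM in DRQ. The next were Rpl39, then Rpl13a, whose human protein also acts in the GAIT complex that silences inflammatory transcripts, at 271 ± 33.7 and 260 ± 28.3 CPM, and Rpl36a at 257 ± 90.4 and 288 ± 65.3 CPM. The levels of Rpl13a and Rpl36a overlapped each other.

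Reads from near-identical copies limit what the tag counts of some genes show. The last 200 bases of a single annotated transcript per gene were examined. For 47 of the 78 genes, some 50-base windows in these bases also occur in transcripts of other genes. The sources used here do not say how reads with several matches were counted. All windows were shared for Rpl10, Rpl9, Rpl36a and Rps27, and 68.9% for Rpl24, while Rpl39 and Rpl13a shared none. Spearman's correlation between a gene's mean CPM and its share of such windows was −0.03 over the 78 genes, and between mean CPM and the GC content of those bases 0.41. Values of genes with shared windows are uncertain where counting could split or drop their reads. Among the genes whose groups did not overlap these are Rpl3 (60.9% of windows shared), Rps2 (78.1%), Rpl13 (72.2%), Rpl7a (67.5%) and Rpl29 (33.8%). Rpl6, Rpl12 and Rplp0 shared none in the transcript examined. Other 3′ ends were not examined, so a gene that shared none here may still have near-identical copies. Rpsa and Rps16 shared none, while pseudogenes named after them had mean summed levels of 786 and 805 CPM.

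**Figure D4:**
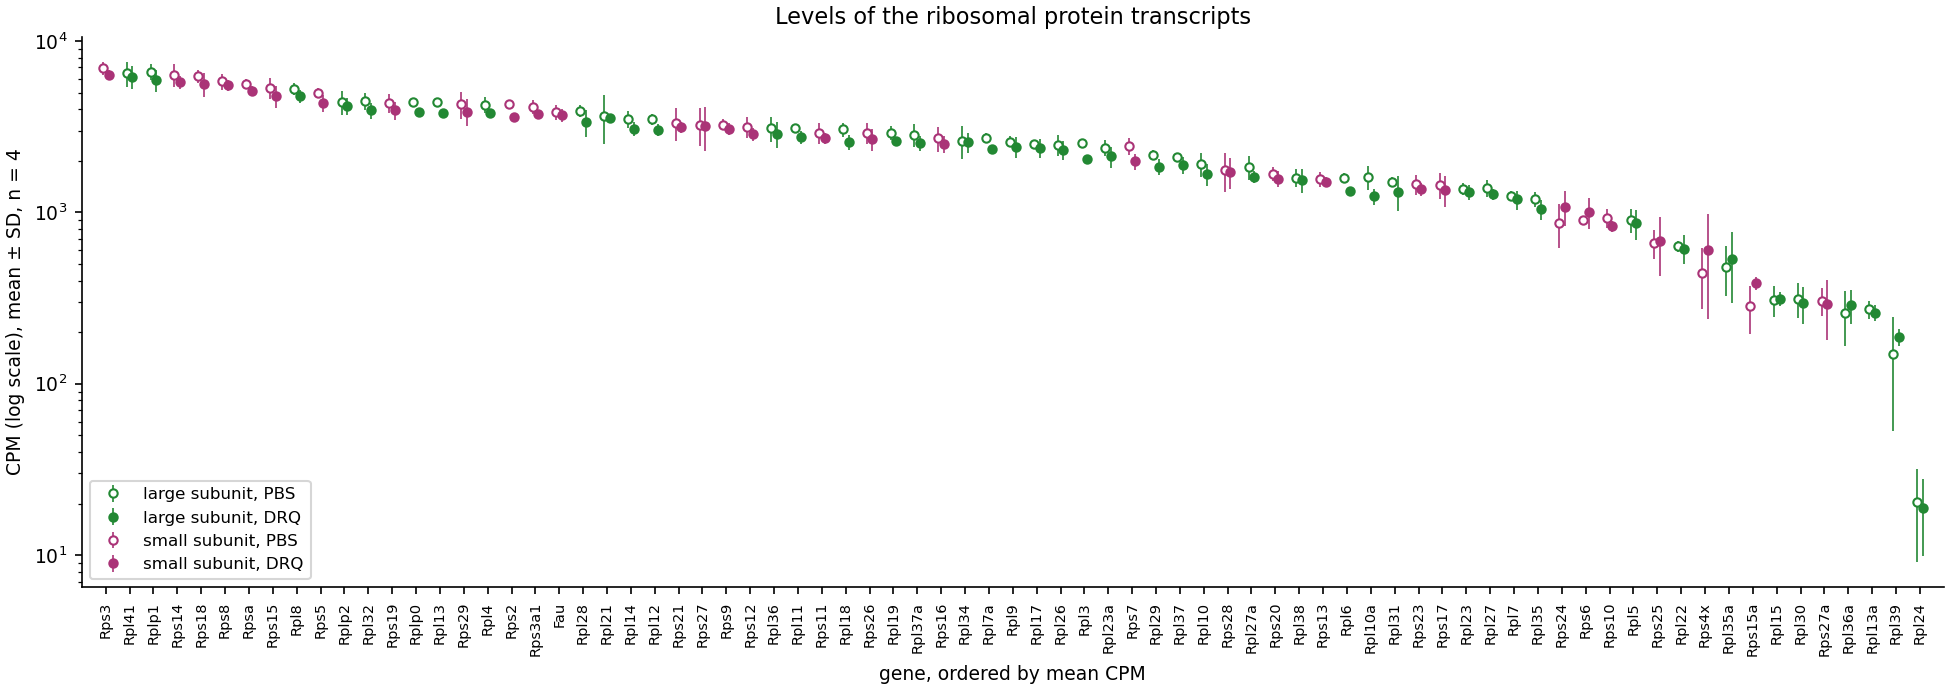
Mean CPM (log scale) with SD (n = 4) of 77 ribosomal protein genes in PBS (open) and DRQ (filled), ordered by mean; green, large subunit; purple, small subunit. Levels run from above 6000 CPM for Rps3 to about 20 CPM for Rpl24, and the groups lie close together for most genes.

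The ubiquitin fusion genes carry a ribosomal protein behind ubiquitin or a ubiquitin-like protein. Fau, the fusion of the small subunit protein S30, had 3547, 3591, 4401 and 3811 CPM in PBS and 3351, 4119, 3668 and 3624 CPM in DRQ. The groups overlapped, with a log2 fold change of −0.06 ± 0.11 (SE; adjusted p = 0.957, edgeR). Rps27a, the ubiquitin fusion of the small subunit, had 292, 256, 384 and 287 CPM in PBS and 131, 378, 346 and 307 CPM in DRQ. DRQ replicate 1 alone was low, and the log2 fold change went from −0.07 to 0.18 without it.

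Among further genes known for roles outside the ribosome, Rps6 alone had an estimate above 0. Rpl5 and Rpl11, which with 5S rRNA can bind MDM2, had 899 ± 142 and 863 ± 175 CPM (Rpl5) and 3085 ± 159 and 2739 ± 234 CPM (Rpl11) in PBS and DRQ (SD, n = 4). Rps6, the substrate of S6 kinase downstream of mTOR, had 896, 848, 898 and 968 CPM in PBS and 804, 881, 1072 and 1274 CPM in DRQ, so that DRQ held both the lowest and the highest library (log2 fold change 0.16 ± 0.14, adjusted p = 0.865, edgeR). That estimate was 0.03 without DRQ replicate 4 and 0.26 without DRQ replicate 1. Rps19, the gene most often mutated in human Diamond-Blackfan anaemia, had 4353 ± 533 and 3932 ± 474 CPM. Rpl10, a late-joining protein of the large subunit, had 1914 ± 316 and 1668 ± 238 CPM. Rpl22, which mice need for normal alpha-beta T cell development, had 634 ± 46.2 and 614 ± 118 CPM, and DRQ replicate 1 at 438 CPM stood below the other DRQ libraries (655 to 682 CPM). Rpsa, the small subunit protein also known as the laminin receptor, had 5613 ± 393 and 5132 ± 301 CPM. Rpl38, needed in mice for translation of certain Hox mRNAs, had 1595 ± 183 and 1550 ± 247 CPM. The groups overlapped for all of these.

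Genes differed in how much they varied within a group. The within-group SD of log2 CPM ran from 0.05 for Rpl13 to 0.85 for Rps4x, with a median of 0.17 over the 78 genes and 0.39 over all genes tested. At a level of at least 500 CPM the median was 0.17 for the 70 ribosomal protein genes and 0.19 for the 225 genes of that level. Rps4x, the X-linked form of the small subunit protein S4, had 506, 213, 622 and 439 CPM in PBS and 222, 372, 992 and 837 CPM in DRQ. Rpl35a, next in spread, had 602, 267, 472 and 581 CPM in PBS and 269, 401, 714 and 750 CPM in DRQ. PBS replicate 2 and DRQ replicate 1 were low for both genes, and DRQ replicates 3 and 4 were high. Rps25 had its lowest values in the same pair of libraries (480 and 322 CPM), as did Rps27 (2081 and 2001 CPM). The 6 least variable genes at 100 CPM or more were Rpl13, Rplp0, Rps2, Rpl7a, Rpl3 and Rpl6, which are all among the 8 whose groups did not overlap. Both measures use the same spread within groups.

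**Figure D5:**
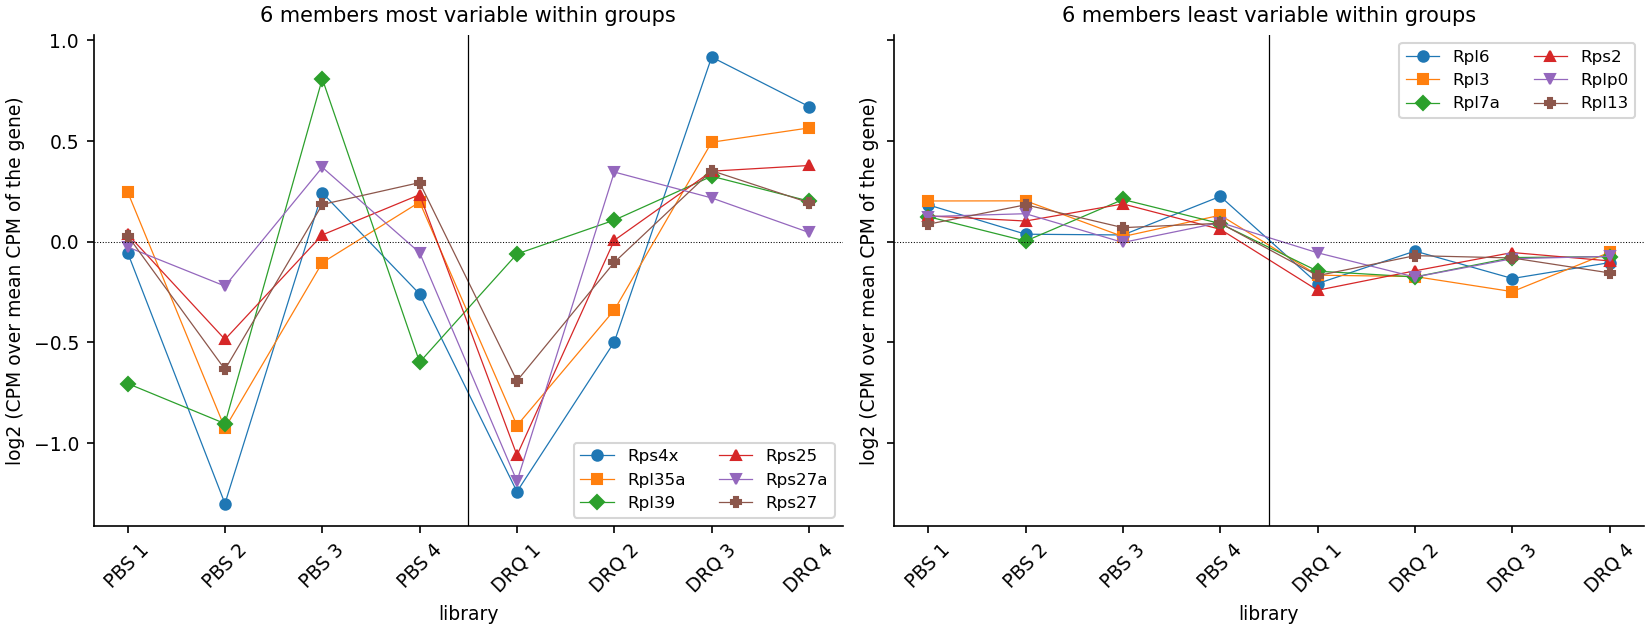
Log2 of CPM over the gene's mean CPM in each library for the 6 ribosomal protein genes of largest (left) and smallest (right) within-group SD among those with at least 100 CPM; lines only join the points of a gene. On the left PBS replicate 2 and DRQ replicate 1 are low for Rps4x, Rpl35a, Rps25 and Rps27, and on the right each gene lies lower in every DRQ library than in every PBS library.

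Levels were also taken relative to the family's own total. As a percentage of the ribosomal protein counts of each library, Rpl18, a large subunit protein, went from 1.41% ± 0.032 in PBS to 1.31% ± 0.048 in DRQ, and Rps15a from 0.130% ± 0.029 to 0.197% ± 0.014 (SD, n = 4). These were the 2 genes whose shares did not overlap between the groups, 1 lower and 1 higher of 78. The same measure, counts over the library's ribosomal protein counts, did not overlap for 0.699% of all genes tested in the lower and 3.93% in the higher direction. With 1 gene in each direction, the count says little about the family. Pseudogenes named after ribosomal proteins, 125 rows, took 0.781% ± 0.051 of the counts in PBS and 0.697% ± 0.044 in DRQ. Of the 58 tested, 43 had an estimate below 0 (background 51.6%). None was lower or higher at an unadjusted p under 0.05 in edgeR (backgrounds 3.28% and 3.98%).

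Of the genes around the ribosome, none in the lists that follow passed an adjusted p of 0.05 in edgeR. Counts at an unadjusted p under 0.05 are to be read against 3.28% lower and 3.98% higher over all genes. Counts below 0 are to be read against 51.6%. Without DRQ replicate 1 the shares over all genes were 2.76% lower, 3.46% higher and 50% below 0. Rack1, a scaffold protein of the small subunit outside the naming rule, had 4210, 4302, 4136 and 4231 CPM in PBS and 3736, 3899, 3947 and 3815 CPM in DRQ. Its groups did not overlap, with a log2 fold change of −0.13 ± 0.10 (SE; adjusted p = 0.833, edgeR). Of the 24 other TOP transcripts tested, 15 were below 0, with 2 lower and 0 higher at an unadjusted p under 0.05. These were Tpt1, the translationally controlled tumour protein, at 3343 ± 411 CPM in PBS and 2678 ± 163 CPM in DRQ (log2 fold change −0.32), and Pabpc1, the cytoplasmic poly(A)-binding protein, at 1524 ± 138 and 1241 ± 72.0 CPM (log2 fold change −0.30). The elongation factor genes Eef1a1 (1034 ± 124 and 981 ± 64.5 CPM) and Eef2 (2422 ± 317 and 2442 ± 220 CPM), which are TOP transcripts as well, overlapped between the groups, and Eef1g did not (1131 ± 52.7 and 997 ± 58.4 CPM, log2 fold change −0.18). Without DRQ replicate 1, 12 of the 24 TOP transcripts were below 0, with 2 lower and 1 higher.

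Of 31 translation initiation factor genes tested, 19 were below 0 (median log2 fold change −0.04), with 2 lower and 1 higher at an unadjusted p under 0.05. Eif4g2, which supports cap-independent initiation, was 87.3 ± 21.9 CPM in PBS and 140 ± 17.8 CPM in DRQ, and Eif3g, a subunit of the factor that binds the small subunit, was 503 ± 45.1 and 387 ± 46.2 CPM; the other lower gene was Pabpc1. Without DRQ replicate 1, 15 of 33 initiation factor genes were below 0 and the median was 0.0072. Of 8 elongation and termination factor genes, 6 were below 0 and none reached an unadjusted p of 0.05. Of 45 ribosome biogenesis genes, 29 were below 0 (median −0.09), with 3 lower and 1 higher. The lower ones were Bop1, Nop58 and Nop14, which process rRNA (log2 fold changes −0.65, −0.63 and −0.77), and the higher one was Ubtf, the RNA polymerase I factor (0.59). Leaving out DRQ replicate 1, 24 of 46 were below 0 (background 50%), with 1 lower and 1 higher (backgrounds 2.76% and 3.46%). Of 66 mitochondrial ribosomal protein genes, 46 were below 0 (median −0.15), with 4 lower (Mrpl3, Mrpl43, Mrps35 and Mrpl57) and 1 higher (Mrpl16, log2 fold change 0.80). Of the 66, 43 were below 0 without DRQ replicate 1 (background 50%). In that fit 1 was lower and 4 higher at an unadjusted p under 0.05 (backgrounds 2.76% and 3.46%).

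Of 15 tested growth regulators of ribosomal protein synthesis, 10 were below 0 (median −0.16), with 2 lower and 0 higher at an unadjusted p under 0.05. Akt1s1, which encodes the mTORC1 inhibitor PRAS40, had 53.5, 50.5, 66.1 and 62.0 CPM in PBS and 18.4, 24.4, 31.5 and 19.3 CPM in DRQ. The groups did not overlap, with a log2 fold change of −1.31 ± 0.36 (SE; adjusted p = 0.218, edgeR), and −1.20 without DRQ replicate 1. Myc, a transcription factor that drives ribosomal protein and rRNA genes, had 181, 205, 114 and 194 CPM in PBS and 145, 114, 111 and 129 CPM in DRQ, with overlapping groups and a log2 fold change of −0.48 ± 0.21 (SE; adjusted p = 0.641, edgeR). PBS replicate 3, the library with the most ribosomal protein transcripts, had the lowest Myc level of the PBS group. A relation between Myc and these transcripts was not tested.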

How the data were processed

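The authors deposited a table of raw counts per Ensembl gene and a table of normalized values, each with 1 column per library. Tools listed in the submitters' processing notes, with no order or role, are STAR 2.7.3a, HTSeq, bcl2fastq 2.20.0.422, cutadapt, DESeq2 1.26.0 and DESeq, and the build listed is GRCm39. Collapsing of UMIs, use of strand and treatment of reads with several matches: not given in the sources used here. The normalized table the authors deposited is a signal, each count over its library's size factor; multiplied by DESeq2's factors, 100% of 86600 values came out whole within 0.05, and edgeR on these reads called 2 genes. That table was used for alternatives only.

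The test was run in edgeR 4.0.16 under R 4.3.3 (filterByExpr, TMM factors on the 6156 genes kept, which hold 94.9% of the counts; quasi-likelihood F test with robust fitting, 2-sided, p-values adjusted by Benjamini-Hochberg, threshold 0.05). CPM of single genes is relative to the summed counts of the tested genes, scaled by TMM, while the summed CPM of marker lists and the floor are relative to library totals without TMM, and log2 CPM uses a prior count of 2. The script was tested on simulated data. DESeq2 1.42.0 and limma-voom (limma 3.58.1) were alternatives. Symbols came from an annotation of another build; 37 IDs with 0.186% of the counts had none. Promoter sequences are from RefSeq, GRCm38.p6. Figures were drawn with matplotlib 3.10.9.

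Genes described, by library or as means, were the 6 lower and 3 higher ones with the smallest p. So were the 4 highest and 4 lowest in level, the stalk and fusion genes and genes with known roles outside the ribosome. Rps4x, Rpl35a, Rps25, Rps27, Rpl7a, Rpl12, Rpl29 and Rpl18 were named after their values were seen. Some genes of these sets are not reported here. The members and gene lists were chosen with earlier results of these data known. Replicate numbers showed no clear pairing of the libraries, and the labels do not give one. Same-number correlations of deviations were −0.01 to 0.08, against −0.08 to 0.06 for other pairs. Of the 4 PBS libraries, 2 correlated best with their own number. Every pair of libraries differed by more than sampling noise (chi-square over its degrees of freedom, 2.60 to 4.21).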

Additional observations from a re-analysis of the deposited data

Results flagged for a closer look

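In 72 groups of 4 libraries examined for these genes, 4 held a library whose distance to its nearest neighbour exceeded Dixon's 95% critical value as a part of the group's range (chance flags about 1 in 20 groups). The mean log2 CPM of the ribosomal protein genes was 10.60 in DRQ replicate 1, with the other DRQ libraries at 10.89 to 10.90. Rpl22 was 438 CPM in DRQ replicate 1, with the others at 655 to 682 CPM. Rpl39 was 294 CPM in PBS replicate 3, with the others at 89.8 to 111 CPM. Rpsa was 6200 CPM in PBS replicate 3, with the others at 5381 to 5450 CPM.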

How the results depend on the processing

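No ribosomal protein gene was called in any of the 21 other settings. The count of all genes called, 2 in the main setting, was 7 with library totals only, 15 with DESeq2, 4 with limma-voom, 8 with no filter, 6 with the replicate number as a block, 8 without both DRQ replicate 1 and PBS replicate 3, and 0 to 15 when 1 library was left out. The replicate block left 0 ribosomal protein genes called and 4 lower at an unadjusted p under 0.05. Whether the numbers pair the libraries is not known. Leaving out 1 library moved the number lower at an unadjusted p under 0.05 from 8 to between 2 (without DRQ replicate 1 or PBS replicate 4) and 13 (without DRQ replicate 2). Over all genes the share lower was 3.28% with all libraries and 2.76% without DRQ replicate 1. It was not computed for the replicate block or without PBS replicate 4 or DRQ replicate 2. Those counts therefore cannot be set against all genes. With 1 library left out, the median log2 fold change of the ribosomal protein genes ran from −0.19 to −0.06. The log2 fold change changed sign when 1 library was left out for Rpl24 (−0.36 to 0.26), Rpl13a (−0.13 to 0.030), Rpl5 (−0.15 to 0.034), Rpl36a (−0.017 to 0.39), Rplp2 (−0.16 to 0.017), Fau (−0.11 to 0.019), Rps27a (−0.22 to 0.18), Rpl41 (−0.16 to 0.019), Rpl38 (−0.11 to 0.066) and Rpl22 (−0.099 to 0.095). Without both DRQ replicate 1 and PBS replicate 3, a setting chosen after seeing the data, it was above 0 for Rpl41 (0.067), Rplp2 (0.063), Fau (0.060), Rps27a (0.30), Rpl5 (0.034), Rpl10 (0.022), Rpl22 (0.077) and Rpl38 (0.065), and the median of the small subunit was 0.0065. The cause was not tested. With 3 counts as the floor, 5.52 to 8.29 CPM, Rpl24 alone lay near the limit of depth.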
